A study of Mus musculus with 12 samples.

Results

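Gene expression in the right ventricle was compared between Nos3-/- (KO) and wild-type (WT) mouse embryos at 14.5 days post coitum. The comparison rests on the 6 of 12 arrays whose titles name the right ventricle, 3 from KO and 3 from WT pools, and it covers 18194 genes, each read from the probe set with the highest mean over all arrays. WT embryos were of the outbred CD1 stock, and KO embryos were homozygous for the targeted Nos3tm1unc allele in strain B6.129P2-Nos3tm1unc/J. Each array carried RNA from the microdissected right ventricles of a pool of 15 to 30 embryos. All KO pools therefore differed from all WT pools in strain as well as in the allele, and genotype and strain cannot be told apart in any value below. Differences are KO minus WT on the log2 scale, so that 1 is a 2-fold difference, and a gene is called where limma's adjusted p is under 0.05.

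Nos3 encodes the endothelial form of nitric oxide synthase, active in the vessel lining and the endocardium. The gas activates soluble guanylate cyclase in neighbouring cells, and the cyclic GMP formed acts on protein kinase G and is broken down by phosphodiesterases. Mice without the gene are known for septal, valve and ventricular wall defects, which arise while the right ventricle is being septated from the left and its compact wall thickens.

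The 8 cardiomyocyte genes averaged 14.32 to 14.66 on the 6 arrays, near the top of the scale, and the 7 skeletal muscle genes averaged 4.17 to 4.49, below the median of all values, 5.67. Hand2, a transcription factor that right ventricular growth depends on, read 10.98, 11.08 and 11.00 on the WT arrays and 10.96, 10.99 and 11.10 on the KO arrays. The third array of each genotype stood apart from its group. WT_RV replicate 3 lay at -29.5 on the first principal component of the 6 arrays (54.6% of the variance), against -11.5 and -15.0 for the other WT and 18.6 to 18.8 for the KO arrays. Its poly-A controls, transcripts added before labelling, averaged 8.96, against 8.05 and 8.13 in the other WT and 7.35, 7.90 and 8.37 in the KO arrays. The difference between 3' and 5' probe sets of Gapdh, a sign of RNA integrity, was 0.25, 0.18 and 0.36 in WT and 0.24, 0.17 and 0.44 in KO. A 5' probe set of 18S ribosomal RNA read 13.52, 13.57 and 12.34 on the WT arrays and 13.29, 13.22 and 11.98 on the KO arrays, so replicate 3 of both genotypes had the highest Gapdh difference and the lowest 18S value. On the second component (21.6% of the variance) these were also the lowest arrays, at -18.0 and -13.3. The part of these signs in the results was not tested, so counts are given with and without WT_RV replicate 3, and for all genes without KO_RV replicate 3 and without both. In such bulk samples, fewer cells of a type and less RNA per cell cannot be told apart.

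Nos3 itself was lower in KO right ventricles and did not reach the dim end of the scale. It fell by 0.66 (SE 0.14, limma adjusted p = 0.00983), from 8.68 ± 0.29 to 8.01 ± 0.23 (SD, n = 3 each), and its 3 KO values all lay below its 3 WT values. A two-sided exact permutation test gave p = 0.1, the smallest that 3 against 3 arrays allow. The position of its probe set relative to the targeted exons was not checked here. The other synthases were not called: Nos1 differed by -0.11 (adjusted p = 0.586) and Nos2, the inducible enzyme, by -0.37 (adjusted p = 0.0644). Among the 10 nearest measured genes on chromosome 5, 5 on each side of Nos3, only Cdk5 was called. Cdk5, a kinase gene, fell by 0.38 and was at -0.29, not called, without WT_RV replicate 3, and another of its probe sets read -0.05. Klhl7, the third gene on one side, read 0.44 and was called only with the replicate number as a block, a fit that called 5.85% of all genes higher and 5.19% lower.

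Genes around nitric oxide and cyclic GMP moved in both directions. Of 36 measured, 3 rose and 4 fell, with a median of 0.04 against -0.04 over all genes. In all, 8.19% of genes were called, 4.61% higher and 3.58% lower. Pde2a, a phosphodiesterase that cyclic GMP stimulates, was at 10.42, 10.49 and 10.14 in WT pools and at 9.65, 9.84 and 9.71 in KO pools. The groups did not overlap, and Pde2a fell by 0.62 (SE 0.12, adjusted p = 0.00582), also without any single array. Cav1, caveolin-1, which holds the synthase inactive in caveolae, read 12.11, 12.20 and 11.99 on the WT arrays and 11.39, 11.76 and 11.60 on the KO arrays and fell by 0.52 (SE 0.12, adjusted p = 0.0154). Slc7a2, an arginine transporter, fell by 0.53, while Slc7a1, another arginine transporter, rose by 0.58, Nostrin, a trafficking factor of the synthase, by 0.56 and Npr3, the natriuretic peptide clearance receptor, by 0.51. Nos3 and Pde2a were called in all 6 fits that left out 1 right ventricle array each, Slc7a2 in 5, Cav1 in 4, Nostrin in 3, Npr3 in 2 and Slc7a1 in 1. Without WT_RV replicate 3, where 3.06% of all genes were called higher and 2.26% lower, the list had 1 rise and 4 falls, and Slc7a1 read 0.36 and Npr3 0.31. Soluble guanylate cyclase and its kinase were not called, with Gucy1a1 at 0.16, Gucy1b1 at 0.30 and Prkg1 at 0.20. Gchfr, the feedback regulator of the enzyme that makes the synthase's cofactor, was in no list and was chosen after its values were seen. It was at 7.42, 7.39 and 8.13 in WT pools and at 5.78, 5.75 and 6.14 in KO pools, and it fell by 1.76 (SE 0.20, adjusted p = 1.18e-04). That enzyme's own gene, Gch1, read -0.36 and was not called (adjusted p = 0.144).

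Across all genes 838 rose and 652 fell, and of the 1490 called, 1483 had KO and WT values that did not overlap. Without overlap alone were 29.4% of genes, 11.8% higher and 17.6% lower. The median difference was -0.04, and 100 rises and 55 falls were of 1 or more. Without WT_RV replicate 3, 556 genes rose (3.06%) and 411 fell (2.26%), 5.31% in all, and these included 494 of the rises and 357 of the falls called with all arrays. Leaving out KO_RV replicate 1, 2 or 3 gave 447, 529 and 456 rises and 315, 375 and 380 falls, and leaving out replicate 3 of both genotypes gave 335 and 298. The call held in all 6 fits that each left out 1 right ventricle array for 345 of the rises and 223 of the falls.

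Genes known by a predicted or clone name alone were left out of the largest differences named, among them the rises Gm26782 (2.81), 3110045C21Rik (2.59) and C920006O11Rik (2.31) and the fall AI506816 (-3.31). The 12 largest rises of the other genes ran from 2.08 to 3.26, and every one was called in all 6 leave-one-out fits. Nts, the precursor of the peptide neurotensin, read 7.17, 6.94 and 7.43 on the WT arrays and 9.98, 9.82 and 10.27 on the KO arrays. The groups lay far apart, and Nts rose by 2.84 (SE 0.13, adjusted p = 2.64e-08). Tagln, the actin-binding protein transgelin, which marks smooth muscle and embryonic heart muscle, was at 8.54, 8.65 and 9.17 in WT pools and at 10.95, 10.97 and 11.10 in KO pools. Its highest WT array was WT_RV replicate 3, and it rose by 2.22 with all arrays (SE 0.17, adjusted p = 2.14e-06) and by 2.41 without that array. Il15, a cytokine of natural killer cells, read 6.22, 5.64 and 6.31 on the WT arrays and 8.28, 7.85 and 8.42 on the KO arrays, a rise of 2.13 (SE 0.20, adjusted p = 1.69e-05). Ang, the secreted ribonuclease angiogenin, rose by 2.44, and another of its probe sets above the median of all values differed by 1.90.

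Several of these rises stood on 1 probe set of the gene. Vps52, part of a vesicle tethering complex, was at 5.23, 4.39 and 5.34 in WT pools and at 8.17, 8.25 and 8.33 in KO pools and rose by 3.26 (SE 0.19, adjusted p = 1.80e-07), while its other probe set, also above the median of all values, differed by -0.16. Odr4 rose by 2.86, with another probe set at 0.59. Other probe sets of Trim12a (2.86), the ciliary gene Rpgrip1 (2.84), the magnesium transporter gene Nipal4 (2.74) and Trim34a (2.08) differed by -0.14 to 0.24, and all of those were dimmer than the median. Nxpe4 rose by 2.81 and the zinc finger gene Zfp874a by 2.41, and each had a single probe set.

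**Figure D1:**
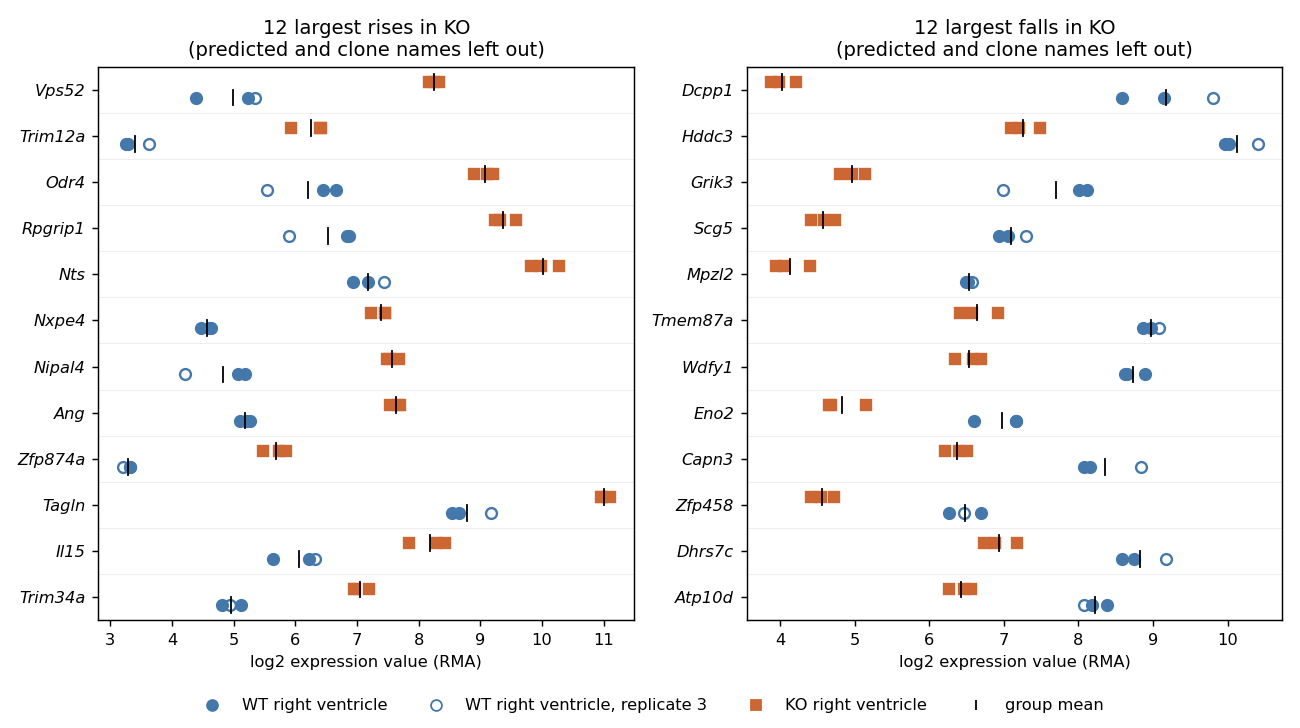
Log2 expression values on the 6 right ventricle arrays for the 12 largest rises (left) and the 12 largest falls (right) in KO, predicted genes and clone names left out; circles are WT, open for replicate 3, squares are KO, and bars are group means. In every gene shown the 3 KO values lie to one side of the 3 WT values. The open circle is far from the filled ones for Grik3, Rpgrip1, Odr4, Nipal4 and Capn3.

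The 12 largest falls, with the same exception, ran from -5.15 to -1.79, and every one was likewise called in all 6 leave-one-out fits. The largest by far was Dcpp1, which encodes a secreted demilune cell protein and has 1 probe set. It read 8.59, 9.15 and 9.80 on the WT arrays and 4.22, 3.99 and 3.88 on the KO arrays, so that KO values were below the median of all values and WT values well above it. It fell by 5.15 (SE 0.23, adjusted p = 1.41e-08). Hddc3, a metazoan phosphohydrolase gene, was at 10.02, 9.96 and 10.41 in WT pools and at 7.21, 7.10 and 7.48 in KO pools, a fall of 2.87 (SE 0.13, adjusted p = 1.41e-08). Grik3, a kainate receptor subunit, fell by 2.73, and WT_RV replicate 3, at 6.99 against 8.11 and 8.01, was the WT array nearest to KO. Second probe sets of Hddc3 and Grik3, both dim, differed by -0.18 and -0.23. Scg5, a secretory granule chaperone, differed by -2.52, Mpzl2, an adhesion molecule, by -2.40, Tmem87a by -2.34 and the neuronal enolase Eno2 by -2.14. The muscle genes Capn3, a calcium-dependent protease, and Dhrs7c, a dehydrogenase of the sarcoplasmic reticulum, fell by 1.98 and 1.90, with a second probe set of Capn3 at -0.62. Wdfy1 fell by 2.18, with other probe sets above the median at -2.75 and -1.90, Atp10d, a phospholipid flippase, by 1.79, and Zfp458 differed by -1.91.

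Genes known to vary between mouse strains, a list of 12 measured, had 3 rises and 3 falls, the same counts in each leave-one-out fit. The rises were Trim12a, Rpgrip1 and Cyfip2 (1.23), and the falls were Wdfy1, Alad (-1.26) and Cyp2d22 (-0.42). The list was chosen with earlier results of these data known. Trim12a, Rpgrip1 and Wdfy1 were also among the 12 largest rises or falls named above. The counts therefore cannot show whether such genes were called more often than the 8.19% of all genes. Nnt, the mitochondrial transhydrogenase disrupted in some C57BL/6 lines, read 12.35, 12.25 and 11.79 on the WT arrays and 12.10, 12.09 and 12.17 on the KO arrays. The groups overlapped and the difference was -0.01, while another bright probe set of Nnt differed by -0.44.

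Myh6 and Tnni2 had the largest rises among called genes listed for the sarcomere and Z-disc. In the sarcomere and Z-disc list 5 of 44 rose and 0 fell (11.4% called, against 8.19% of all genes), with a median of 0.10. The count by limma was 5 rises and 1 fall without WT_RV replicate 3, and 5 and 2 with the replicate block. Myh6, the alpha-myosin heavy chain, was at 12.45, 12.58 and 11.83 in WT pools and at 13.58, 13.80 and 13.46 in KO pools. All KO values lay above all WT values, and Myh6 rose by 1.33 (SE 0.19, adjusted p = 8.71e-04). Myh7, the beta-myosin heavy chain and the main isoform of the embryonic ventricle, differed by 0.05 (adjusted p = 0.787). Tnni2, fast skeletal troponin I, read 8.97, 9.16 and 9.98 on the WT arrays and 10.28, 10.36 and 10.93 on the KO arrays and rose by 1.15 (SE 0.23, adjusted p = 0.00703). Pdlim3, a Z-disc protein, rose by 0.86 (SE 0.12, adjusted p = 8.04e-04), and these 3 genes were called in all 6 leave-one-out fits. Myl7, the atrial light chain, and Myl1 rose by 0.40 and 0.47 but were called in 2 and 1 of those fits. The natriuretic peptides, markers of working and strained myocardium, were not called, with Nppa at 0.41 (adjusted p = 0.0682, 0.0276 with the replicate block) and Nppb at 0.19.

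Calcium handling genes had 4 rises and 0 falls among 30 (13.3% called, against 8.19% of all genes), with a median of 0.18. Without WT_RV replicate 3 there were 3 rises. Camk2d and Camk2a, subunits of calcium/calmodulin-dependent kinase, rose by 0.58 and 0.55, and Jph1, a junctophilin, by 0.45, each in all 6 leave-one-out fits. Other probe sets of Camk2a gave -0.64 to 0.29, and those of Camk2d above the median of all values included -0.12, 0.09 and 0.13. Cacna2d1, a calcium channel subunit, rose by 0.45, read 0.40 and was not called without WT_RV replicate 3, and had another probe set at -1.91. The pump and release genes Atp2a2 (0.06), Pln (-0.05) and Ryr2 (0.32) were not called.

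Potassium channel genes accounted for the falls among 28 genes of ion channels and conduction. Of these 2 rose and 3 fell (17.9% called, against 8.19% of all genes). Kcnj12, an inward rectifier channel, was at 6.43, 6.80 and 6.39 in WT pools and at 5.70, 5.72 and 5.64 in KO pools. The groups were well separated, and Kcnj12 fell by 0.85 (SE 0.12, adjusted p = 7.32e-04). Kcnk3, a leak channel, read 8.28, 8.31 and 8.11 on the WT arrays and 7.57, 7.20 and 7.33 on the KO arrays and fell by 0.87 (SE 0.17, adjusted p = 0.0065), with another probe set at -0.24. Kcnj8, the pore of ATP-sensitive channels of pericytes and smooth muscle, fell by 0.79 and was called in 5 of 6 leave-one-out fits. The rises were the transcription regulators Irx3 (0.77), which patterns the conduction system, and Id2 (0.46), both in all 6 fits.

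The core cardiac transcription factors were not among the called genes. Gata4 read 0.09, Hand2 -0.00, Tbx5 0.02, Hand1 -0.31 and Nkx2-5 -0.33, with adjusted p of 0.0756 to 0.987. Of 51 factors listed 8 rose and 0 fell (15.7% called, against 8.19% of all genes), with a median of 0.09. Irx3, Foxc2, a forkhead factor of the outflow tract and valves, at 0.77 (SE 0.16, adjusted p = 0.00936) and Meis2, a homeobox cofactor, at 0.41 were called in all 6 leave-one-out fits. The other 5, Nfatc1 (0.63), Myocd (0.51), Tbx20 (0.49), Irx6 (0.48) and Hey2 (0.34), were not called without WT_RV replicate 3, where they read 0.40, 0.33, 0.38, 0.48 and 0.32. Tbx20, needed for chamber growth, was at 11.65, 11.64 and 11.31 in WT pools and at 11.86, 12.12 and 12.10 in KO pools, and WT_RV replicate 3 was its lowest array. Other probe sets above the median of all values read -0.32 and 0.13 for Tbx20, -0.24 for Myocd and 0.14 to 0.39 for Nfatc1.

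Genes of compact wall growth had 3 rises and 1 fall among 24 (16.7% called, against 8.19% of all genes, and 5 rises and 1 fall with the replicate block). Without WT_RV replicate 3, where 5.31% of all genes were called, there were 0 rises and 1 fall. The rises were Tbx20, Hey2 and the cyclin Ccnd2 (0.45, and 0.33 without that array). Other probe sets of Ccnd2, all above the median of all values, read 0.50 to 1.05 with all arrays. In the trabecular list 2 of 17 rose and 1 fell. Slit2, a secreted guidance ligand, read 10.44, 10.43 and 9.48 on the WT arrays and 11.49, 11.48 and 11.04 on the KO arrays and rose by 1.22 (SE 0.23, adjusted p = 0.0063). Robo1, a receptor of Slit ligands, was at 7.71, 7.77 and 6.74 in WT pools and at 8.71, 8.97 and 9.14 in KO pools and rose by 1.53 (SE 0.24, adjusted p = 0.00152). In both, WT_RV replicate 3 was the lowest WT array, and without it the rises were 0.90 and 1.20 and still called. Other probe sets of Slit2 above the median read 0.95 and 0.46. The guidance list as a whole had 5 rises and 0 falls among 38, and 4 and 1 without that array. Sema3c, a semaphorin of the outflow tract, rose by 0.55 (SE 0.10, adjusted p = 0.0061) in all 6 fits, and the other rises were Ntn4 (0.47) and Sema3e (0.44), each called in 2 of 6.

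Ligands of the BMP and TGF-beta families rose in part. Of 54 measured genes of these pathways 10 rose and 2 fell (22.2% called, against 8.19% of all genes, median 0.15). Without WT_RV replicate 3, 5 rose and 1 fell. Bmp5 read 7.88, 7.60 and 7.34 on the WT arrays and 8.57, 8.56 and 8.56 on the KO arrays and rose by 0.96 (SE 0.13, adjusted p = 4.21e-04). Bmp2, which induces cushion formation, was at 7.44, 7.31 and 6.99 in WT pools and at 7.77, 8.06 and 7.96 in KO pools and rose by 0.68 (SE 0.12, adjusted p = 0.00369). In both genes the KO values lay above all WT values and the lowest array was WT_RV replicate 3. Inhbb, an activin subunit, rose by 0.54 and the matrix target Tgfbi by 0.79, and these 4 and Id2 were called in all 6 leave-one-out fits. Another probe set of Inhbb read -0.08, and one of Acvr1 0.07. The extracellular regulator Bmper (0.77), Ltbp1 (0.50), the receptors Acvr1 (0.45) and Tgfbr1 (0.40) and the inhibitor Smad6 (0.39) rose but were called in 1 or 2 of the 6. Bmp4 fell by 0.44 and read -0.36, not called, without WT_RV replicate 3. The transducer Smad2 fell by 1.16 (SE 0.15, adjusted p = 3.77e-04), while its other, similarly bright probe set differed by 1.95, so that its direction depends on the probe set.

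Fewer Notch, Wnt and growth factor genes were called without WT_RV replicate 3, where fewer of all genes were called too (5.31%). With all arrays 8.82% of the Notch genes, 12.1% of the Wnt genes and 6 of 46 growth factor genes were called, against 8.19% of all genes. In the Notch list 3 of 34 rose and 0 fell. Without WT_RV replicate 3 limma called 0, and the rises Dll1 (0.64), Adam17 (0.43) and Hey2 read 0.49, 0.28 and 0.32. Notch1 differed by 0.31 (adjusted p = 0.22). In the Wnt list 5 of 58 rose and 2 fell, and 2 and 2 without WT_RV replicate 3. The coreceptor Lrp6 fell by 0.64 (SE 0.12, adjusted p = 0.0049) in all 6 leave-one-out fits, and the receptor Ror2 rose by 0.61 in 5. The others were Znrf3 (0.70), the inhibitor Wif1 (0.68), Rspo3 (0.68), Fzd2 (0.50) and Nkd1 (-0.60), called in 1 to 4. Other bright probe sets read -0.02 for Lrp6, 0.15 for Ror2 and 0.11 and 0.14 for Fzd2, and -0.02 and -0.12 for Adam17. Among neuregulin, FGF and IGF genes 5 of 46 rose and 1 fell, and 2 rose and 0 fell without that array. Igfbp3, an IGF-binding protein, was the steadiest of them, with 9.47, 9.46 and 9.51 in WT and 10.45, 10.45 and 10.48 in KO, a rise of 0.98 (SE 0.09, adjusted p = 1.81e-05). Igfbp2 rose by 0.62 in all 6 fits, whereas Etv5 (0.55), Erbb3 (0.51), Dusp6 (0.37) and Egfr (-0.39) were not called without WT_RV replicate 3, and another probe set of Egfr read 0.10. None of the 17 retinoic acid genes was called by limma (2 falls with the replicate block).

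Versican and its linker, the core of the cardiac jelly, rose in KO. In the matrix list 9 of 68 rose and 4 fell (19.1% called, against 8.19% of all genes, median 0.11), and 6 and 4 without WT_RV replicate 3. Hapln1, which links versican to hyaluronan, read 6.29, 5.93 and 5.56 on the WT arrays and 7.45, 7.53 and 7.48 on the KO arrays and rose by 1.56 (SE 0.23, adjusted p = 9.13e-04). Vcan, versican itself, was at 10.10, 10.19 and 9.40 in WT pools and at 11.03, 11.43 and 11.02 in KO pools and rose by 1.26 (SE 0.20, adjusted p = 0.00171). Both had KO values above all WT values and their lowest value on WT_RV replicate 3, without which they rose by 1.38 and 1.02. The fibrillar collagen Col11a1 rose by 1.25, Col12a1 by 0.80 and the mesenchymal glycoprotein Tnc by 0.72, and all 5 of these were called in all 6 leave-one-out fits. The falls were of the protease inhibitor Timp3 (-0.80), Sparcl1 (-0.70), Col8a1 (-0.65) and the integrin Itga8 (-0.60), of which Col8a1 was called in 2 of 6 and the others in 6. Other probe sets above the median of all values differed by 0.02 and 0.20 for Timp3 and by -0.11 for Col12a1.

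Markers of the lining and covering layers differed from each other in direction. Of 12 endocardial genes 4 rose and 1 fell (41.7% called, against 8.19% of all genes), with a median of 0.32. Without WT_RV replicate 3, 2 rose and 1 fell. Tmem108 rose by 0.92 (SE 0.11, adjusted p = 1.54e-04, with other probe sets at 0.90 and 0.24) and Adgrg6 by 0.73, while Cytl1, a secreted cytokine-like protein, fell by 1.34 (SE 0.12, adjusted p = 7.94e-06). Cytl1 read 8.56, 8.79 and 8.74 on the WT arrays and 7.46, 7.17 and 7.43 on the KO arrays, with no overlap. Of 24 endothelial genes 2 rose and 2 fell, 1 and 1 without WT_RV replicate 3 and 2 and 4 with the replicate block. The junction gene Cldn5 fell by 0.76 and the transcription factor Fli1 rose by 0.57, each in all 6 fits, although another bright probe set of Fli1 differed by -0.25, and Vwf rose by 0.70 with WT_RV replicate 3 and read 0.47, not called, without it. Of 14 epicardial genes 3 rose and 1 fell, in each of the 6 fits. The keratins of the epicardial sheet, Krt19, Krt8 and Krt18, rose by 1.24, 0.76 and 0.64, while Tcf21, which marks epicardium-derived fibroblasts, was at 9.50, 9.57 and 9.82 in WT pools and at 8.27, 8.63 and 8.72 in KO pools and fell by 1.09 (SE 0.12, adjusted p = 7.23e-05). Wt1, a defining epicardial gene, differed by 0.15 and was not called.

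Leukocyte markers leaned upward. Of 23 measured 5 rose and 0 fell (21.7% called, against 8.19% of all genes), with a median of 0.20. Their mean level was 6.93 to 7.10 in WT and 7.12 to 7.47 in KO. Cd52 read 5.52, 5.17 and 6.16 on the WT arrays and 6.59, 6.68 and 7.34 on the KO arrays and rose by 1.25 (SE 0.24, adjusted p = 0.00655). The complement gene C1qb rose by 0.92, the protease Ctss by 0.58 and the macrophage receptor Csf1r by 0.43 (called in 5 of 6 leave-one-out fits, the other 3 in 6). Ptprc, the pan-leukocyte antigen, rose by 0.76 and read 0.56, not called, without WT_RV replicate 3. Csf1r had other probe sets above the median of all values at 0.08 and -0.10. Macrophage genes such as Adgre1 (0.20), Mrc1 (0.17) and Cd68 (0.01) were not called. Of the antigen presentation genes the class II chain H2-Ab1 rose by 1.85 (SE 0.16, adjusted p = 1.20e-05), from 5.24, 5.07 and 5.75 to 7.49, 6.93 and 7.18, and H2-DMa fell by 0.57.

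Interferon response genes had 9 rises and 0 falls among 38 (23.7% called, against 8.19% of all genes), with a median of 0.14. The count was 5 without WT_RV replicate 3 and 3 to 8 over the 6 leave-one-out fits. Most of these genes were dim, and Trim12a (3.26, 3.28 and 3.62 in WT, 6.42, 5.93 and 6.40 in KO) was also among the genes listed for strain variation. Oasl2, of the oligoadenylate synthase family, rose by 0.81 (SE 0.16, adjusted p = 0.00736), and Gbp3, a guanylate-binding GTPase, by 0.58 (SE 0.11, adjusted p = 0.00611), both in all 6 fits. Irgm1 (0.57), Cmpk2 (0.56), Usp18 (0.53), Irgm2 (0.50), the tetherin gene Bst2 (0.50) and Parp14 (0.39) were called in 2 or 3 of the 6.

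Of the 38, 27 read above 0 and 11 below, and the promoters of the list were searched in RefSeq sequences of build GRCm38.p6, from 250 bases before to 50 bases after each start. The motif was GAAA, any 2 bases and GAAA again, on either strand, the core to which interferon regulatory and STAT complexes bind. It occurred in 3.99% of 27025 genes and in 18 of 30 measured interferon genes with a promoter in the table. It was present in 5 of the 7 called higher (71.4%) and in 13 of the 23 not called (56.5%). Irgm1, Bst2 and Gbp3, called members with overlapping copies of it, show its form. The 250 bases before the start are given on the gene's strand, with the motif copies in capitals, which for Gbp3 are on the opposite strand; the windows are chr11:48871421-48871670 (minus strand), chr8:71537473-71537722 (minus strand) and chr3:142559794-142560043 (plus strand).
Irgm1: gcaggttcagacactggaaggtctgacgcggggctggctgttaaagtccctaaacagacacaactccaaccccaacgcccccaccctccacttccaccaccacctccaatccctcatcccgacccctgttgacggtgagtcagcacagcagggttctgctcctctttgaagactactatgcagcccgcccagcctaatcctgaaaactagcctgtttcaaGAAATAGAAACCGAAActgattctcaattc
Bst2: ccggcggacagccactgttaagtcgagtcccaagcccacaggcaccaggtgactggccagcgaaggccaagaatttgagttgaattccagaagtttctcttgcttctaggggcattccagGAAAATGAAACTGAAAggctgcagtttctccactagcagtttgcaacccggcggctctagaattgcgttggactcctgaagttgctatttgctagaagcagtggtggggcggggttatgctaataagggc
Gbp3: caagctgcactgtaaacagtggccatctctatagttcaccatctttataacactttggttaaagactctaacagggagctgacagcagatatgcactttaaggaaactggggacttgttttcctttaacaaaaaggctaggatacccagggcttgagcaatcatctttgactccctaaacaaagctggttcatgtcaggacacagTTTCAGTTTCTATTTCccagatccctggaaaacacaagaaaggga
Irgm1 was at 6.53, 6.61 and 6.79 in WT pools and at 7.45, 7.02 and 7.18 in KO pools, Bst2 8.27, 8.04 and 8.25 and then 8.73, 8.48 and 8.84, and Gbp3 5.57, 5.63 and 5.39 and then 6.19, 5.93 and 6.20. None of the 3 had overlapping groups, and each of these matches describes letters, not a bound site.

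Of 8 measured genes of haem synthesis 3 fell and 1 rose, and no embryonic globin gene was called. Over all genes 3.58% were called lower and 4.61% higher. Without WT_RV replicate 3, where these shares were 2.26% and 3.06%, the list again had 3 falls and 1 rise. Alas2, the erythroid enzyme that starts haem synthesis, read 8.57, 8.70 and 9.33 on the WT arrays and 7.46, 7.58 and 7.89 on the KO arrays and fell by 1.22 (SE 0.24, adjusted p = 0.00756). Slc25a37, the mitochondrial iron importer, fell by 1.04 (SE 0.19, adjusted p = 0.00452), and Fech, which inserts iron, by 0.97 (SE 0.13, adjusted p = 4.91e-04). Alad, the enzyme that follows Alas2 in the pathway, fell by 1.26, while Ppox, a late one, rose by 0.67. All 5 were called in each leave-one-out fit, but another bright probe set of Fech differed by 0.34, the opposite direction. The adult globin Hbb-b2, named after its values were seen, was at 8.97, 9.37 and 10.03 in WT pools and at 7.93, 8.40 and 8.44 in KO pools. It fell by 1.20 (SE 0.23, adjusted p = 0.00558), while a dimmer probe set of it, still above the median of all values, differed by 0.48.

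Embryonic globins read the other way without being called. Hba-x read 10.75, 10.15 and 10.47 on the WT arrays and 11.34, 10.97 and 11.18 on the KO arrays, with no overlap and a difference of 0.71 (adjusted p = 0.0636, 0.00169 with the replicate block). Hbb-y differed by 0.28 and Hbb-bh1 by 0.60, with adjusted p of 0.0958 and 0.291. Of 15 erythroid markers 0 rose and 4 fell (26.7% called, against 8.19% of all genes, median -0.13), and 0 and 3 without WT_RV replicate 3. Besides Alas2 and Slc25a37 these were the band 3 anion exchanger Slc4a1 (-0.79, called in 3 of 6 leave-one-out fits) and the transcription factor Klf1 (-0.95, called in 1 of 6). WT_RV replicate 1 had the highest value of both, 9.35 and 7.99.

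Liver transcripts were also highest on WT_RV replicate 1. Alb, albumin, was at 11.57, 8.72 and 9.19 in WT pools and at 9.32, 7.99 and 8.18 in KO pools, and Afp 12.37, 9.52 and 9.71 and then 10.15, 8.51 and 8.99. The first WT array was thus more than 2 above the others for both. All 11 liver genes read lower in KO, with a median of -0.70 against -0.04 over all genes. Apoh alone was called (9.09% of the list, near the 8.19% of all genes). Apoh read -1.01, and -0.52 without WT_RV replicate 1 (limma adjusted p = 0.0489 and 0.0434), and was called in 3 of 6 leave-one-out fits. The mean of the list was 8.06 on WT_RV replicate 1, 6.21 and 6.33 on the other WT and 5.79 to 6.49 on the KO arrays. Without WT_RV replicate 1, Alas2 read -1.37, Slc25a37 -1.08, Fech -1.02, Slc4a1 -0.56 and Klf1 -0.57, the last 2 not called. The part of liver tissue in the red cell values was not tested.

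**Figure D2:**
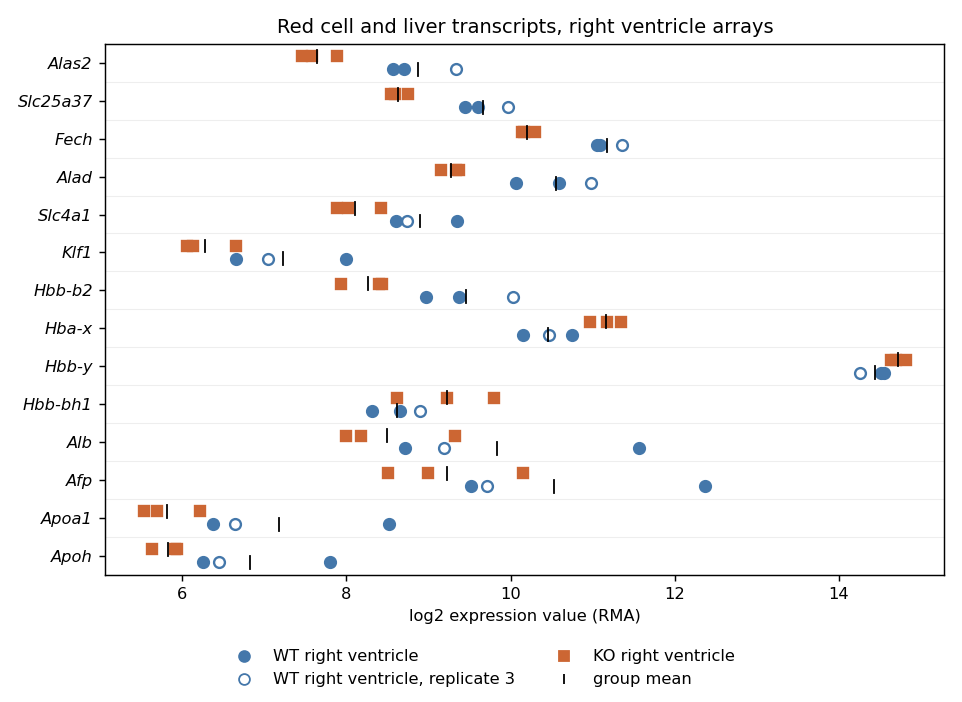
Log2 expression values on the 6 right ventricle arrays for genes of haem synthesis and red cells, embryonic globins (Hba-x, Hbb-y, Hbb-bh1) and liver; circles are WT, open for replicate 3, squares are KO, and bars are group means. The KO squares lie left of the WT circles for Alas2, Slc25a37, Fech and Alad and right of them for Hba-x, and a single filled circle, WT_RV replicate 1, lies far to the right for Alb, Afp and Apoa1.

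Fatty acid genes had more falls than rises, and few genes of oxidative phosphorylation were called. In the list of fatty acid uptake and oxidation 2 of 42 rose and 6 fell, with a median of -0.13. Crat, which buffers acyl groups as carnitine esters, read 10.02, 9.93 and 9.81 on the WT arrays and 9.28, 9.38 and 9.23 on the KO arrays and fell by 0.62 (SE 0.09, adjusted p = 8.04e-04). The other falls called in 4 or 5 of 6 leave-one-out fits were of Ech1 (-0.46), Acadvl (-0.39) and Acaa2 (-0.35), and over the 6 fits the list had 1 to 7 falls. Of 67 oxidative phosphorylation genes 53 read below 0 (median -0.07, and -0.04 without WT_RV replicate 3, against -0.04 over all genes), while 0 rose and 2 fell (2.99% called, against 8.19% of all genes). These were Sdhc (-0.72, SE 0.13, adjusted p = 0.00365, with another bright probe set at -0.21) and Cox8b, whose -0.74 became -0.50 and was not called without WT_RV replicate 3. Of 66 mitochondrial ribosomal genes 5 fell and 0 rose (7.58% called, near the share of all genes), led by Mrpl15 (-0.64) and Mrps11 (-0.52). Their median moved from -0.16 to -0.04 without WT_RV replicate 3, where 3 fell.

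Glucose and oxygen genes moved singly. The glucose transporter Slc2a1 rose by 0.80 (SE 0.12, adjusted p = 0.00104), with 2 further probe sets at 0.78 and 0.71, and the muscle enolase Eno3 fell by 0.43. Among 24 hypoxia genes 3 rose, Slc2a1, Pfkfb3 (0.44) and Hif1a (0.34), and Ndrg1 fell by 0.58, with other probe sets at -0.67, -0.50, -0.43 and -0.14. Hif1a read 0.27 and was not called without WT_RV replicate 3, and it was called in 2 of the 6 leave-one-out fits. In the antioxidant list Gsto1 rose by 0.89, with another bright probe set at -0.05, and Gsta4 (-0.48), Gpx3 (-0.44) and the red cell peroxiredoxin Prdx2 (-0.32) fell. Another probe set of Prdx2, also above the median of all values, differed by 2.85. Cell cycle genes had 4 rises and 0 falls among 53 (7.55% called, against 8.19% of all genes). The rises included the inhibitor Cdkn1b at 0.69 (SE 0.12, adjusted p = 0.00418) and the cyclin Ccne2 at 0.59. Without WT_RV replicate 3 the list had 2 rises. The list of apoptosis and p53 genes had 4 rises and 0 falls among 22, and 3 rises without that array, of which Eda2r (0.99, SE 0.17, adjusted p = 0.00309) and Ccng1 (0.69, SE 0.08, adjusted p = 2.00e-04) were called in all 6 leave-one-out fits. Ccng1 was tight in both groups, with 11.61, 11.53 and 11.50 in WT and 12.19, 12.26 and 12.27 in KO.

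**Figure D3:**
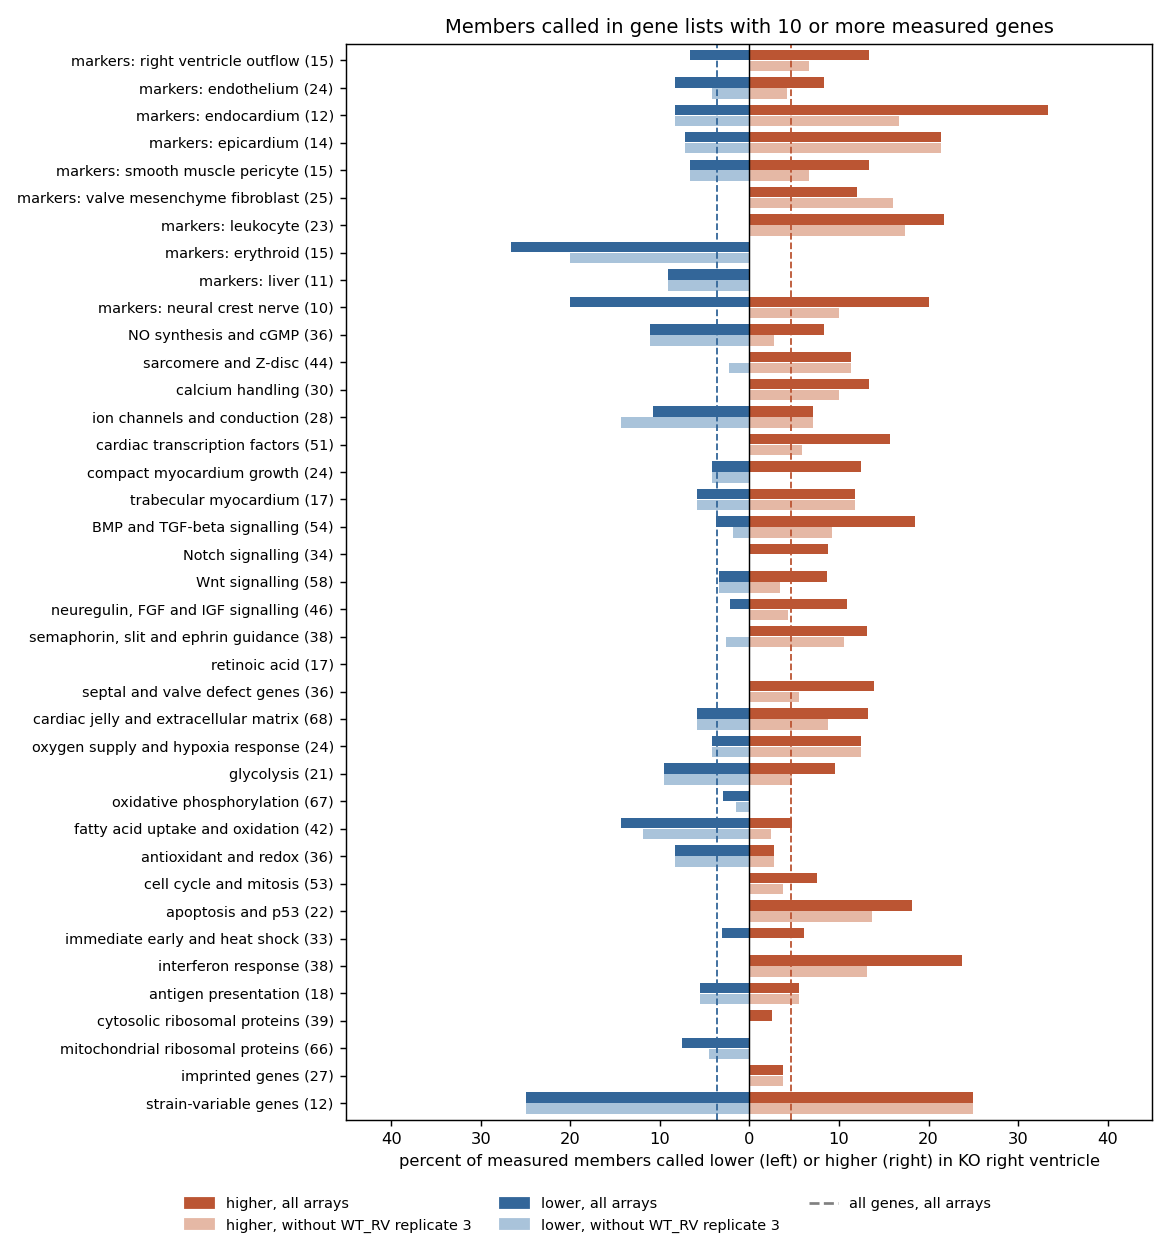
Percent of the measured genes of each list (number in brackets) called higher (right, red) or lower (left, blue) in KO right ventricles, with all arrays (dark) and without WT_RV replicate 3 (pale); dashed lines mark the percent of all genes called with all arrays, 4.61 higher and 3.58 lower. Without WT_RV replicate 3 the percent of all genes called, not drawn, was 3.06 higher and 2.26 lower. Pale red bars are absent for Notch, compact wall, immediate early and cytosolic ribosomal genes, and the bars of strain-variable and epicardial genes keep their length.

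The right ventricle's differences were largely those of the left. In the left ventricle of the same study, 3 KO against 3 WT arrays that share none with the right, 30.9% of genes were called. Poly-A controls of the WT left arrays averaged 8.89 to 8.94, close to WT_RV replicate 3 at 8.96. Those of the KO left arrays were lower, at 8.05 to 8.47. The 18S probe set read 12.18 to 12.96 on WT left arrays, against 13.16 to 13.56 on KO left arrays. The part of these signs in the left calls, their overlap with the right or the comparison of the ventricles was not tested. Of the genes that rose in the right, 727 (86.8%) also rose in the left, where they were 21.5% of the rises. Of those that fell, 409 (62.7%) also fell in the left, 18.3% of the falls there, and 0 genes were called in opposite directions. Rises were mostly larger in the left, for 525 of 838, and falls mostly larger in the right, with 212 of 652 larger in the left. These genes were chosen by their call in the right, a choice that favours larger differences there. The count of falls therefore cannot show a difference between the ventricles. Over all genes the SD of the differences was 0.28 in the right and 0.38 in the left. Nts and Tagln rose more in the right (2.84 and 2.22) than in the left (1.81 and 1.68), while Bmp2 (0.68 against 1.54), Csf1r (0.43 against 1.13) and Robo1 (1.53 against 2.12) rose more in the left, differences that did not pass the test of interaction with all arrays.

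**Figure D4:**
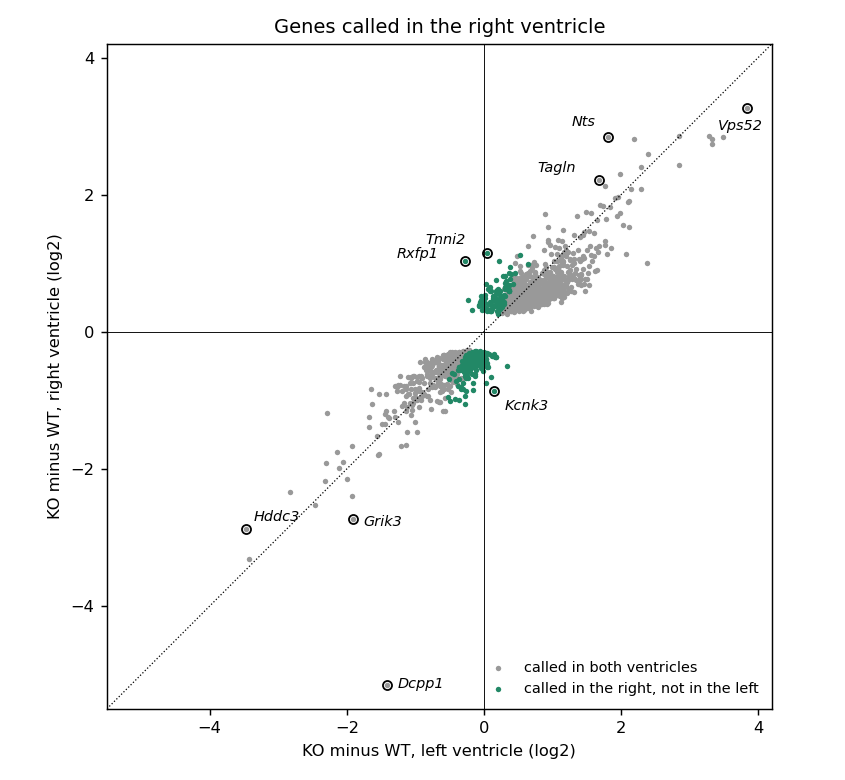
KO minus WT difference in the right ventricle (vertical) against that in the left (horizontal), log2, for the 1490 genes called in the right; grey points were also called in the left, green ones were not, and the dotted line marks equal differences. Dcpp1 lies far below the line at -5.15 against -1.41, and Tnni2, Rxfp1 and Kcnk3 lie near 0 in the left.

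The test of the difference between the ventricles, the interaction of genotype and ventricle, called 4 genes (0.0220%), and Dcpp1 was the one that also passed in the right. In WT it was higher in the right ventricle than in the left, where it read 5.23, 5.33 and 5.73, and in KO it read 3.88 to 4.22 over both ventricles. Its interaction was -3.74 (SE 0.32, adjusted p = 3.30e-04). The others, Tcf24, Gpnmb and Gfra1, differed by -0.22, -0.01 and -0.04 in the right and rose in the left. With the replicate block the interaction was no longer called for Gpnmb (adjusted p = 0.0535) and Gfra1 (0.05). Each of these calls was also lost in several fits that left out a single array. With WT_RV replicate 3 left out, the interaction called 1309 genes (7.19%), in 1273 of them with a sign opposite to the left ventricle's difference, so the count of genes that differ between ventricles rests on that array.

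Of the 354 genes called in the right and not in the left, 111 rose and 243 fell. For 39 of them the interaction also passed without WT_RV replicate 3, and 21 of these, 4 higher and 17 lower, were called in the right in all 6 leave-one-out fits. With all arrays none of the 21 passed the interaction test in limma, and their lowest adjusted p was 0.0582, for Rxfp1. Rxfp1, the relaxin receptor, was at 4.83, 5.20 and 4.93 in WT pools and at 6.30, 5.83 and 5.93 in KO pools right ventricles and rose by 1.03 (SE 0.14, adjusted p = 6.80e-04), against -0.27 in the left. Tnni2 rose by 1.15 in the right and read 0.04 in the left, an interaction of 1.11 (adjusted p = 0.314) and of 1.42 without WT_RV replicate 3 (adjusted p = 0.022). Kcnk3 gave -0.87 and 0.15, and Kcnj12 -0.85 and -0.16. In WT, Kcnj12 and Pde2a were higher in the right than in the left ventricle, where they read 5.50 to 5.90 and 9.76 to 10.09. In KO their right values, 5.64 to 5.72 and 9.65 to 9.84, lay near the left ones, 5.44 to 5.54 and 9.62 to 9.83. Megf10, a phagocytic receptor gene, had the same order, with 6.93 to 7.38 in WT right, 5.92 to 6.29 in WT left and 6.07 to 6.28 in KO right ventricles, but its KO left values, 5.58 to 5.97, were all below the KO right ones.

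**Figure D5:**
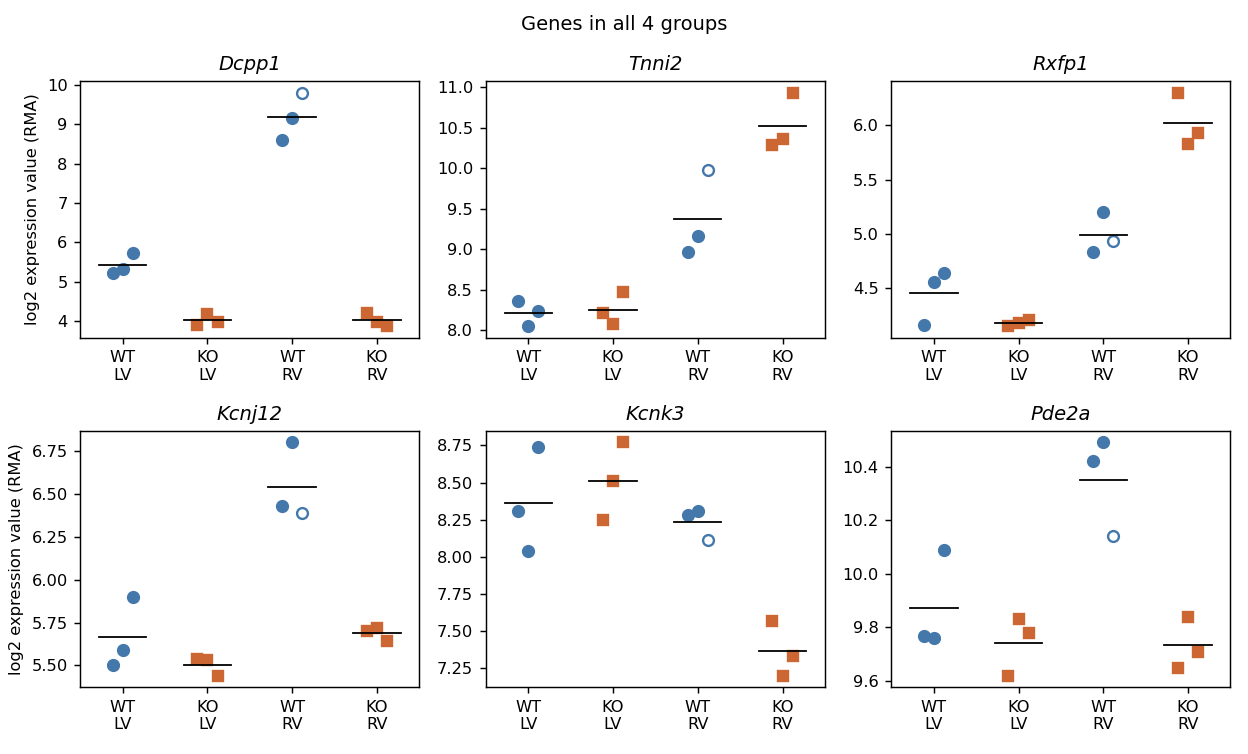
Log2 expression values of 6 genes on all 12 arrays, by genotype and ventricle; circles are WT, open for WT_RV replicate 3, squares are KO, and lines are group means. The right ventricle pair of groups is separated in every panel, and the left ventricle pair is separated for Dcpp1 and not for Tnni2, Rxfp1, Kcnj12, Kcnk3 and Pde2a.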

How the data were processed

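RNA (100 ng per sample) from pooled, microdissected ventricles was hybridised to Affymetrix Mouse430_2 arrays. The authors deposited log2 values computed with RMA, per the submitters' processing notes, for 45101 probe sets on 12 arrays. RMA's quantile step gives all arrays the same distribution of values and can hide a change shared by most genes. The number of arrays limits the precision, and p-values measure the spread between pools.

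Of the probe sets 34958 had 1 gene symbol, 932 several and 9211 none, and those with 1 were used. The probe set with the highest mean over the 12 arrays stood for a gene. limma 3.58.1 in R 4.3.3 fitted the 4 groups together (lmFit, eBayes), with contrasts for the right ventricle, the left ventricle and their difference, and Benjamini-Hochberg adjustment over 18194 genes. The fit was tested on simulated data. Figures used matplotlib 3.10.9.

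Named genes were Nos3, its neighbours and 14 set genes, the 12 largest rises and falls without overlap whose brighter group's mean reached the median of all values (predicted genes and clone names passed over), and up to 4 called members a list in each direction. Further list members were named after their values were seen. Members and lists were chosen with earlier results of these data known.

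Replicate numbers were checked for pairing. Deviations of same-numbered WT and KO right ventricle arrays correlated at 0.11, 0.26 and 0.31, and of unlike-numbered ones at 0.09 at most. The pairing comes from these values, since the labels give numbers alone. Alternatives were the replicate block, array weights, other scalings, trend, filters and probe set rules, the right ventricle alone, and each array left out.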

Additional observations from a re-analysis of the deposited data

Results flagged for a closer look

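For 4 genes the genotype difference in the right ventricle departed from that in the left by limma's interaction term. For Dcpp1 the right minus left difference was -3.74 (adjusted p = 3.30e-04), with -5.15 in the right and -1.41 in the left. For Tcf24 it was -1.60 (adjusted p = 0.00784), with KO left ventricles at 7.70 ± 0.21 (SD, n = 3) and WT left ventricles at 6.33 ± 0.28, while the right ventricle arrays read 5.67 to 6.02. For Gpnmb, a lysosomal glycoprotein gene of macrophages, it was -1.25 (adjusted p = 0.0208), with KO left ventricles at 6.93 and all other groups below 6, and its adjusted p was 0.0535 with the replicate block. For Gfra1, a receptor of glial cell line-derived factor, it was -1.22 (adjusted p = 0.0332), with KO left ventricles at 6.64 and WT left ventricles at 5.46. The block gave 0.05 for Gfra1, not called. After a further quantile normalization limma's adjusted p was 0.063 for both Gpnmb and Gfra1. With the mean of probe sets they read -0.69 and -0.50 (adjusted p = 0.163 and 0.334). Without KO_RV replicate 1 their adjusted p was 0.11 and 0.139.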

How the results depend on the processing

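With all arrays 838 genes rose and 652 fell. The right ventricle arrays alone gave 537 and 391, array weights 1352 and 1506, and leaving out replicate 3 of both groups, chosen after seeing the data, 335 and 298. Fits without 1 array gave 447 to 1095 rises and 315 to 718 falls. The replicate block gave 1064 and 945. It called Klhl7 (adjusted p = 0.0387), Nppa (0.0276), Hba-x (0.00169) and Apoa1 (0.0466) in addition, lost the interaction of Gpnmb (0.0535) and Gfra1 (0.05), and changed no other call of a gene named in the text. The 4 interaction calls became 2 with a further quantile normalization, 2 with the replicate block, 2 with the mean of probe sets, 1364 with array weights, and 2 to 1309 without 1 array. The causes were not tested. Centring arrays on their medians left 52.3% of calls higher, against 56.2%. The mean of a gene's probe sets, which brings in dimmer ones, reversed Camk2a (-0.03), Cacna2d1 (-0.12), Smad2 (0.40), Prdx2 (1.26) and Egr3 (0.04). Of the 152 named calls, 74 held under every setting tried. Nos3 held in all of them. Dim probe sets bound what can be read, since values near the bottom of the scale understate differences.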

Other observations

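Called genes were spread over the chromosomes, from 6.17% of the genes on chromosome 15 to 10.8% on chromosome 14. In the order of the RefSeq gene table, 160 of 1485 called genes were followed by another called gene (10.8%, against 8.20% of the 18144 genes placed). The densest run of 21 neighbouring genes, picked for its density, lay around Spata46 on chromosome 1 and held 10 called genes. The largest difference among them was that of the clone-named gene 3110045C21Rik, which rose by 2.59. Hsd17b7, an enzyme of sterol synthesis, rose by 1.10, the kinetochore gene Nuf2 by 0.86, Uhmk1 by 0.83 and Atf6, a sensor of endoplasmic reticulum stress, by 0.69, and Cfap126 by 0.93, while Sdhc fell by 0.72, Olfml2b by 0.66 and Rgs4 by 0.55. Atf6 and Uap1 (0.34) were not called without WT_RV replicate 3, at 0.47 and 0.25.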
